A study of Mus musculus with 36 samples.

Results

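The expression of the genes that build, assemble and regulate the proteasome was followed in mouse kidney across 5 dietary interventions, each set against its own control. A probe set, a group of array probes for one transcript, was a member if its only gene symbol began with Psma, Psmb, Psmc, Psmd, Psme, Psmf or Psmg and a number. There were 74 such probe sets, of 47 genes, among 28898 probe sets that carry a single symbol for 17097 genes in all. Of the 47 genes, 30 had 1 probe set and 17 had several. The spelling also took in 2 genes whose products are not part of the particle, Psmc3ip, a recombination protein, and Psme3ip1, which binds an activator. Psmc6, Psmd10, Psme4 and Psme2b had no probe set with a single symbol and were not analysed here.

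All animals were C57BL/6 male mice with no genetic modification named, aged 10 to 12 weeks, which had eaten the standard chow SDS freely for 7 days before the diets began. In the fasting experiment, 4 mice went without food for 3 days and 5 mice stayed on SDS chow. In the later experiment, 5 mice had 30% dietary restriction (30%DR) for 2 weeks and 3 mice with SDS chow served as their control. In the same experiment 5 mice received the purified Control diet, and 5 mice a protein-free, 5 mice a carbohydrate-free (CHO-free) and 4 mice a fat-free diet for 3 days each. The protein-free, CHO-free and fat-free groups were all compared with the same 5 Control mice. RNA of the whole kidney from each mouse was hybridized to 1 array, 36 in all. Values are log2 signals, on which a difference of 1 is a 2-fold change.

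The proteasome is the large protease that degrades proteins tagged with ubiquitin. Its core, the 20S particle, is a barrel of alpha and beta rings that holds the proteolytic sites inside, and the 19S particle, made of a base with ATPases and a lid, recognises tagged proteins, removes the tag and feeds the chain into the core. In cells of the immune system and after interferon gamma, the catalytic subunits encoded by Psmb6, Psmb7 and Psmb5 are exchanged for those of Psmb9, Psmb10 and Psmb8, which gives the immunoproteasome and changes the peptides offered on class I molecules. In muscle, fasting is known for raising proteasome subunits and ubiquitin ligases, and the kidney takes part in amino acid handling and gluconeogenesis when food is absent.

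The promoters of the 4 genes that passed the test after fasting are shown, since the 3 immunoproteasome genes among them were called in the same direction. For Psmb9 the called probe set was not the brightest. Each run holds the 250 bases before the RefSeq start of the transcript, read 5′ to 3′ on the strand of the gene in build GRCm38.p6. Capitals mark letters that match one of the motifs named after the runs, each searched on both strands. The windows are chr17:34197945-34198194 (plus strand) for Psmb8, chr17:34187331-34187580 (minus strand) for Psmb9, chr8:105938393-105938642 (minus strand) for Psmb10 and chr5:123227940-123228189 (plus strand) for Psmd9.
Psmb8: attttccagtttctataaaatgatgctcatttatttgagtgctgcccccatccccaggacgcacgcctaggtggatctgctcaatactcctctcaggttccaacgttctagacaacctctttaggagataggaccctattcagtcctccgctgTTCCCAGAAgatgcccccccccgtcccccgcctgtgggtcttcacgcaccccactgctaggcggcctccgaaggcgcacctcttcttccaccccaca
Psmb9: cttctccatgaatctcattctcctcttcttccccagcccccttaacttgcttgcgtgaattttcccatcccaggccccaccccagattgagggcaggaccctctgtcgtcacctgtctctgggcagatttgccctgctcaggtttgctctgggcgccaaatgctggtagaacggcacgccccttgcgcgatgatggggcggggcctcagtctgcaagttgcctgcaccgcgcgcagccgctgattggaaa
Psmb10: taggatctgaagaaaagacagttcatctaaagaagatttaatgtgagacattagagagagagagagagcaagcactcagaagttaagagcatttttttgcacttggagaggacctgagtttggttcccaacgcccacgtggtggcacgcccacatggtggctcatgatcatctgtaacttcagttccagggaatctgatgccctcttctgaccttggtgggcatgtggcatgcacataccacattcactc
Psmd9: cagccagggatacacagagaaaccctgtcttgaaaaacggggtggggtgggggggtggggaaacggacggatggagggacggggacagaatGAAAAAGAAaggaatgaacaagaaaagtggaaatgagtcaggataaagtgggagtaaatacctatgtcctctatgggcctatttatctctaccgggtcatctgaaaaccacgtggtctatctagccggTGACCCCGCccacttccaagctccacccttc
The capitals in Psmb8, at -97 from the start, match TTCNNNGAA, the letters of a gamma-interferon activation site. The first capitals in Psmd9, at -159, match GAAANNGAA, an interferon response motif, and the second, at -31, match TGACNNNGC, an antioxidant response motif. The windows of Psmb9 and Psmb10 held none of these 3 motifs, which says only that the letters are not there. RefSeq promoters, taken from 250 bases before to 50 bases after the start, were found for 39 of the 47 genes, 43 promoters in all. TTCNNNGAA was in 3 of the 43 (6.98%) and in 8.3% of all 32851 promoters of that length. GAAANNGAA was in 7 (16.3%) and in 8.56%, and TGACNNNGC in 4 (9.3%) and in 12.4%. CCGGAA, the letters of an ETS motif, was in 20 of the 43 (46.5%) and in 14.9% of all, a description to which no test was applied, and base composition was not compared. Psmb9 and Psmb8 lie close together in the major histocompatibility region of chromosome 17, in the order H2-DMb1, Psmb9, Tap1, Psmb8, Tap2, H2-Ob and H2-Ab1, while Psmb10 is on chromosome 8.

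Of 9 kidney markers chosen, 6 had a single-symbol probe set, and all 6 were high on every array, from Umod of the thick limb at 12.71 to 13.21 down to Aqp2 of the collecting duct at 6.36 to 8.89. The array medians were 4.15 to 4.21 in the fasting experiment and 3.62 to 3.76 in the later one, which were normalized separately, so levels are compared within each. Of the member probe sets, 59 were above the median signal of all probe sets. A call required a false discovery rate (FDR) under 5% in limma, over all 45141 probe sets, and a change of at least 1.5-fold. A probe set that met the FDR alone is named as such. In whole tissue, fewer cells of a type and less RNA per cell cannot be told apart. The difference between the 3′ and 5′ probe sets for Gapdh, a sign of how complete the labelled RNA was, ran from 0.65 to 0.96 in the Control mice and from 0.98 to 2.45 in the CHO-free mice, without overlap.

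The called members were not the same in the 5 interventions, which by itself does not show that the effects differed. In the tests of the differences, given further below, 0% to 2.7% of members were called, beside 2.24% to 3.33% of all probe sets. After fasting, members were called in both directions, and Psmb8, Psmb10 and 1 probe set of Psmb9, all of the immunoproteasome, were the lowest of the 74. After the CHO-free diet most lay below the Control level and 6 probe sets were called, all lower. With 30%DR, the protein-free and the fat-free diet, none was called.

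**Figure D1:**
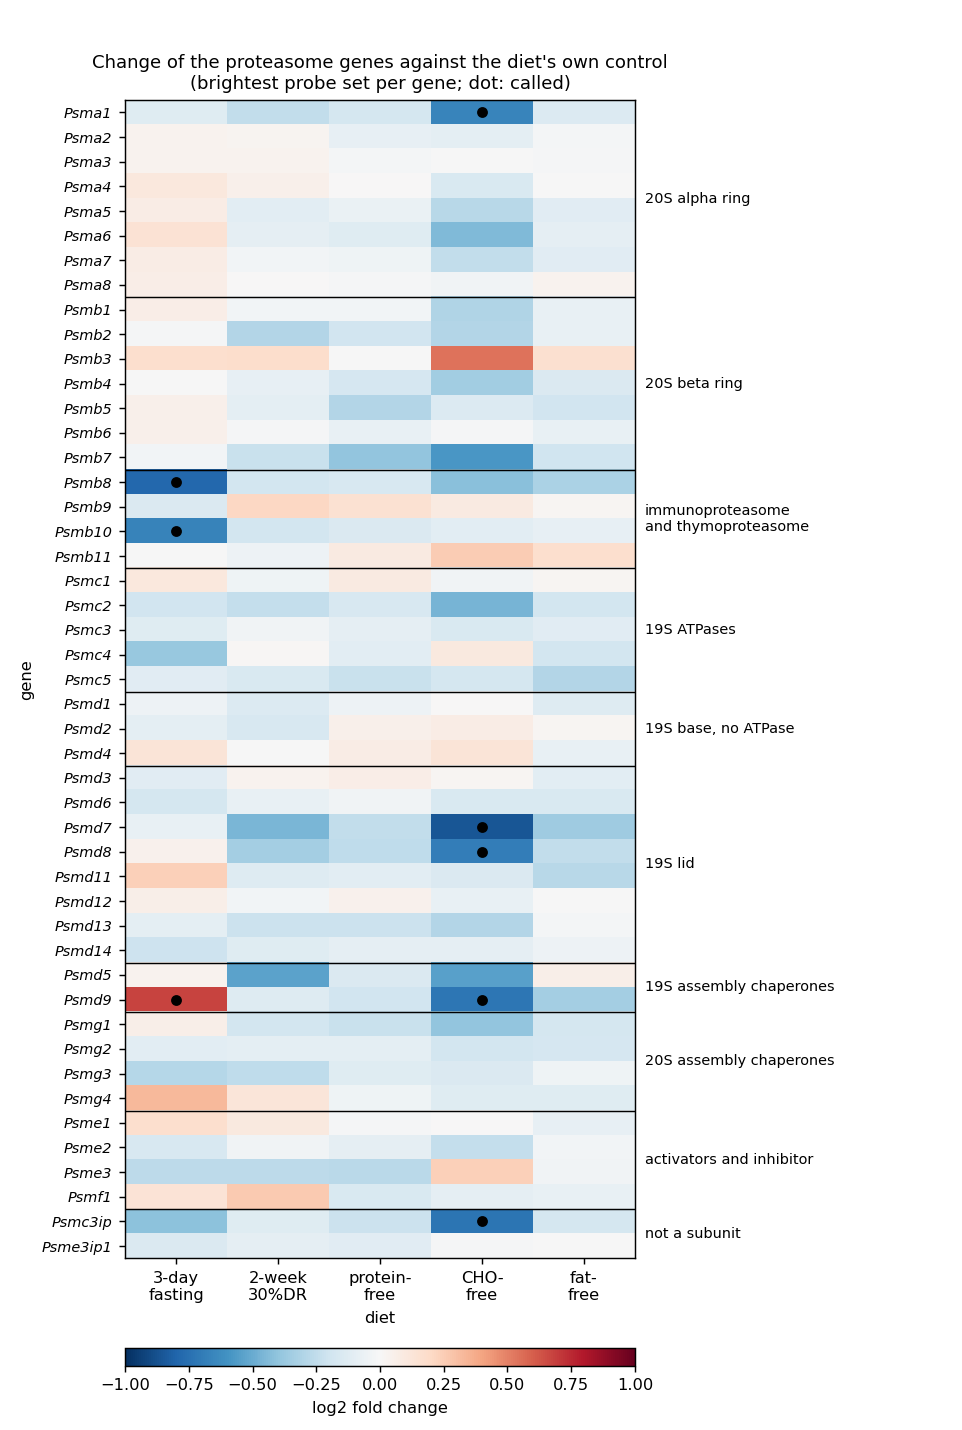
Log2 fold change of each of the 47 proteasome genes (vertical axis, grouped by role, 1 brightest probe set per gene) in the 5 interventions (horizontal axis), each against its own control. Red is higher, blue is lower and a dot marks a called change. Dots in the fasting column lie on Psmb8 (-0.78), Psmb10 (-0.67) and Psmd9 (0.67), and the called probe set of Psmb9 is not its brightest and is not drawn.

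The first question was whether 3 days without food altered the genes of the constitutive particle. The 14 constitutive 20S genes, those of the alpha and beta rings that every cell uses, were not called: 10 lay above and 4 below 0, their median change was 0.05 and the single changes ran from -0.12 to 0.17 in log2. No 95% interval of their brightest probe sets reached beyond -0.28 or 0.32. The mean signal of the 14 genes was 10.34 ± 0.07 (SD, n = 5) on SDS chow and 10.38 ± 0.06 (SD, n = 4) after fasting. Psmb6, the constitutive beta1 subunit, was at 0.05, Psmb7 (beta2) at -0.03 and Psmb5 (beta5) at 0.05. The signals of Psmb5, which carries the chymotrypsin-like site, were 10.29, 10.29, 10.27, 10.15 and 10.35 on SDS chow and 10.46, 10.28, 10.29 and 10.25 after fasting. Those of Psmb6 were 10.20, 10.36, 10.47, 10.12 and 10.43, and 10.36, 10.44, 10.36 and 10.31. For both genes the groups overlapped.

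Of the immunoproteasome counterparts of these 3 subunits, Psmb8 and Psmb10 were called lower in the brightest probe set, and Psmb9 only in another of its 3. Psmb8 (beta5i) had log2 signals of 7.15, 6.99, 6.98, 7.50 and 7.50 in the 5 SDS mice and of 6.50, 6.29, 6.41 and 6.55 in the 4 fasted mice. Every fasted mouse was below every SDS mouse. The change was -0.78 (SE 0.12, 95% interval -1.05 to -0.52, adjusted p = 0.00088, limma), 1.72-fold lower.

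Psmb10 (beta2i) had signals of 6.96, 7.03, 7.04, 7.18 and 7.12 on SDS chow and 6.45, 6.32, 6.46 and 6.37 after fasting. The groups did not overlap, and the spread within each was the smallest of the 4 called genes. The change was -0.67 (SE 0.06, adjusted p = 3.24e-05, limma), 1.59-fold lower.

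Psmb9 (beta1i) had 3 probe sets that differed in size of change. The called one measured 6.54, 6.63, 6.38, 6.85 and 6.89 on SDS chow and 6.15, 6.01, 5.89 and 5.90 after fasting, again without overlap. It fell by 0.67 (SE 0.11, adjusted p = 0.00102, limma), also 1.59-fold, whereas the other 2 probe sets were at -0.15 and -0.13, overlapped between the groups and were not called. The brightest, at -0.15, measured 6.12 to 6.81 on SDS chow and 6.20 to 6.22 after fasting. The second probe set of Psmb8 was at -0.15 as well, also not called. Psmb11, the thymus form of the beta5 subunit, was at -0.01.

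**Figure D2:**
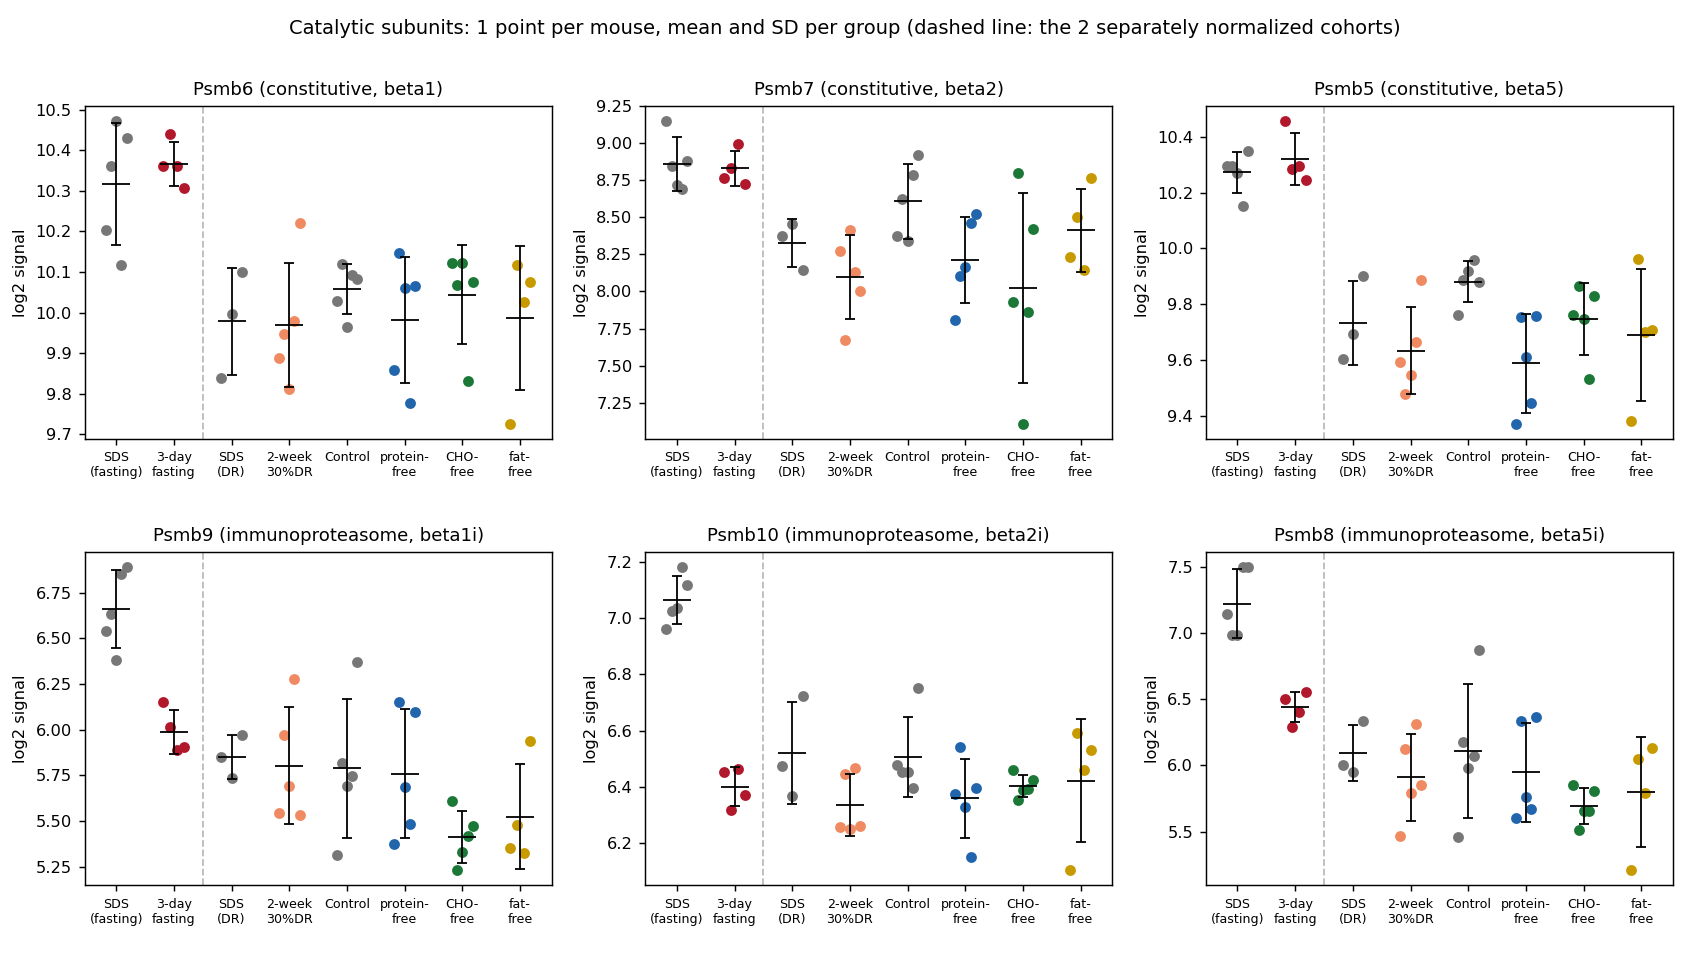
Log2 signal (vertical axis) of the 3 constitutive catalytic subunits (top) and their immunoproteasome counterparts (bottom) in the 8 groups (horizontal axis), 1 point per mouse with mean and SD. Fasted mice lie below all their SDS controls for Psmb10, Psmb8 and the called probe set of Psmb9, the one drawn, which is not its brightest, while Psmb6, Psmb7 and Psmb5 differ from theirs by 0.05, -0.03 and 0.05 on average. The dashed line separates the 2 experiments, which were normalized separately.

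Leukocyte markers moved with the called probe sets of these 3 genes. All 20 markers were below the control after fasting, with a median of -0.61. Of them 10 were called lower (50%, beside 2.68% of all probe sets) and 14 passed the FDR (70%, beside 9.54% lower). The list also holds the antigen presentation genes Cd74, H2-Ab1, H2-Aa and H2-Eb1, so its mean is not a measure of cell number alone. Among the 20 were the macrophage genes C1qb (-0.92) and Aif1 (-0.90) and the pan-leukocyte gene Ptprc (-0.78). The mean signal of the 20 was 6.58 to 6.97 on SDS chow and 6.14 to 6.34 after fasting, without overlap. The lymphocyte markers Cd3e and Cd79a were near the bottom of the scale in both groups at means of 3.55 to 3.68. With the marker mean as a covariate the changes were -0.05 for Psmb8 (SE 0.14, adjusted p = 0.916, limma), -0.20 for the called probe set of Psmb9 (SE 0.19, adjusted p = 0.716) and -0.47 for Psmb10 (SE 0.14, adjusted p = 0.116). None was called in that fit. Because the marker mean separates the groups completely, diet and markers cannot be told apart in that fit.

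Genes of antigen presentation and of the interferon response, from a list of 16 genes of which 12 were measured, were counted beside the immunoproteasome. After fasting 4 were called lower (33.3%, beside 2.68% of all probe sets) and 6 passed the FDR (50%, beside 9.54% lower). In all 11 of 12 lay below 0, with a median of -0.31. The called genes were Gbp2 (-1.25) and Gbp3 (-0.87), guanylate-binding proteins induced by interferon, Igtp (-0.86), an interferon-induced GTPase, and Nlrc5 (-0.70), the transactivator of class I genes. The class I genes H2-K1 and H2-D1 were at 0.06 and -0.04.

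A 19S assembly chaperone, Psmd9, rose. It helps to join the ATPases of the base before the 19S particle forms. Its brightest probe set had log2 signals of 6.57, 6.79, 6.52, 6.28 and 6.81 on SDS chow and 7.17, 7.57, 7.13 and 7.20 after fasting. The lowest fasted mouse was above the highest SDS mouse. The change was 0.67 (SE 0.12, adjusted p = 0.0024, limma), 1.59-fold higher. Its other probe sets were at 0.56 (adjusted p = 0.0079, limma, under the fold minimum) and 0.18. Without fasting replicate 2, the mouse at 7.57, the change was 0.57, just under the fold minimum, and Psmd9 was no longer called. With the leukocyte covariate its change was 0.51 (SE 0.28, adjusted p = 0.457).

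These 4 calls were 1 higher and 3 lower of 74 probe sets, 1.35% and 4.05%, while the array as a whole had 2.63% called higher and 2.68% lower. By the FDR alone 6 members were higher and 9 lower, 8.11% and 12.2%, beside 10.1% and 9.54% of all probe sets. The members' shares were thus near those of all probe sets. Their median change was -0.01 with 36 above and 38 below 0, and that of all probe sets was 0.00.

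The remaining fasting changes that met the FDR were smaller than the fold minimum. In the 19S base, Psmc4, an ATPase, fell by 0.38 and by 0.36 in its 2 probe sets (adjusted p = 0.00743 and 0.00303, limma). Its brighter probe set measured 9.73, 9.95, 9.85, 9.80 and 9.88 on SDS chow and 9.57, 9.64, 9.28 and 9.39 after fasting, without overlap. In the lid, Psmd14, the enzyme that removes ubiquitin chains, fell by 0.21, and 1 probe set of Psmd11, a lid scaffold, rose by 0.23. Among the 20S assembly chaperones Psmg3 fell by 0.28 and Psmg4 rose by 0.32. For Psma1 of the alpha ring 2 probe sets rose by 0.31 and 0.27 while its brightest was at -0.12. Psmf1, a proteasome inhibitor, fell by 0.34 in 1 of 4 probe sets, and its brightest was at 0.14. The recombination gene Psmc3ip fell by 0.41.

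None of the activators was called after fasting. Psme1 and Psme2, which form the interferon-inducible PA28 cap, were at 0.16 and -0.16, and Psme3, the nuclear form, at -0.26. Psme3 measured 7.73, 7.78, 7.62, 7.69 and 7.73 on SDS chow and 7.60, 7.63, 7.26 and 7.30 after fasting, so that the highest fasted mouse lay just above the lowest control. By role, the median change was -0.12 for the 5 measured ATPases and -0.08 for the 8 lid genes.

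The genes that work beside the proteasome were read from lists. Of 16 measured partners, none was called after fasting. By the FDR alone Uchl5, a deubiquitinase of the 19S particle (0.25), Ecpas, a proteasome adaptor (0.23), and Nfe2l1, the transcription factor that drives proteasome genes (0.29), were higher, and Ube3c (-0.44) and Usp14 (-0.26) were lower. Of 9 ubiquitin ligases known from muscle wasting, Trim63 (-0.93) and Fbxo30 (-0.82) were called lower (22.2%, beside 2.68% of all probe sets). Fbxo32 (0.47), Nedd4 (0.33) and Fbxo21 (0.52) met the FDR with higher values.

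After the CHO-free diet the members lay mostly below the Control mice. Of the 74 probe sets 55 were below 0, with a median of -0.14, when the median of all 45141 was 0.03. The 6 called lower were 8.11% of the members, beside 2.25% of all probe sets. All 6 were among the 59 members above the median signal (10.2%). The members are thus brighter than probe sets in general, and the shares were not compared among bright probe sets alone. None was called higher (1.35% of all). By the FDR alone 13 were lower (17.6%, beside 4.85% of all) and 1 higher (1.35%, beside 5.51%), and 30 of 74 had an unadjusted p under 0.05 in limma (40.5%, beside 24.4%). The 14 constitutive 20S genes had a median of -0.26, with 13 below 0 and 1 called, and a mean signal of 10.00 ± 0.14 (SD, n = 5) on the Control diet and 9.79 ± 0.22 (SD, n = 5) without carbohydrate.

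Lid genes were among the 6. Psmd7, a lid scaffold that partners the deubiquitinase, had log2 signals of 7.00, 7.44, 7.42, 7.65 and 7.68 in the Control mice and 6.74, 7.11, 6.30, 6.06 and 6.71 in the CHO-free mice. All but 1 CHO-free mouse lay below the lowest Control mouse. The change was -0.86 (SE 0.20, adjusted p = 0.00646, limma), 1.81-fold lower.

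Psmd8, a lid subunit that completes the particle, had signals of 9.34, 9.67, 9.85, 9.75 and 9.77 on the Control diet and 9.18, 9.48, 8.44, 8.70 and 9.11 without carbohydrate. CHO-free replicate 2 overlapped with the Control mice. The change was -0.69 (SE 0.17, adjusted p = 0.00985, limma).

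Psma1, the only constitutive 20S gene called, had signals of 9.81, 10.11, 10.05, 10.23 and 10.55 on the Control diet and 9.44, 10.14, 8.94, 9.21 and 9.71 without carbohydrate. Again replicate 2 lay within the Control range. The change was -0.66 (SE 0.18, adjusted p = 0.0194, limma), while its other probe sets were at 0.14 and -0.13.

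Assembly chaperones made up another pair. Psmg2, a chaperone of the alpha ring, fell by 1.08 (SE 0.30, adjusted p = 0.0209, limma) in 1 probe set, with 6.41 to 7.07 in the Control mice and 4.85 to 6.65 in the CHO-free mice. Its brightest probe set was at -0.19. Psmd9, which rose after fasting, fell by 0.72 (SE 0.22, adjusted p = 0.0301), from 6.28, 6.65, 6.50, 6.16 and 6.32 to 5.80, 6.40, 5.00, 5.43 and 5.67. Its other probe sets were at 0.28 and 0.29, the opposite sign.

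Psmc3ip, no part of the particle, was the sixth and the only one whose groups did not overlap. It measured 5.17, 5.17, 5.21, 5.70 and 5.53 on the Control diet and 4.84, 5.00, 4.41, 4.19 and 4.68 without carbohydrate, a change of -0.73 (SE 0.15, adjusted p = 0.0023, limma).

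**Figure D3:**
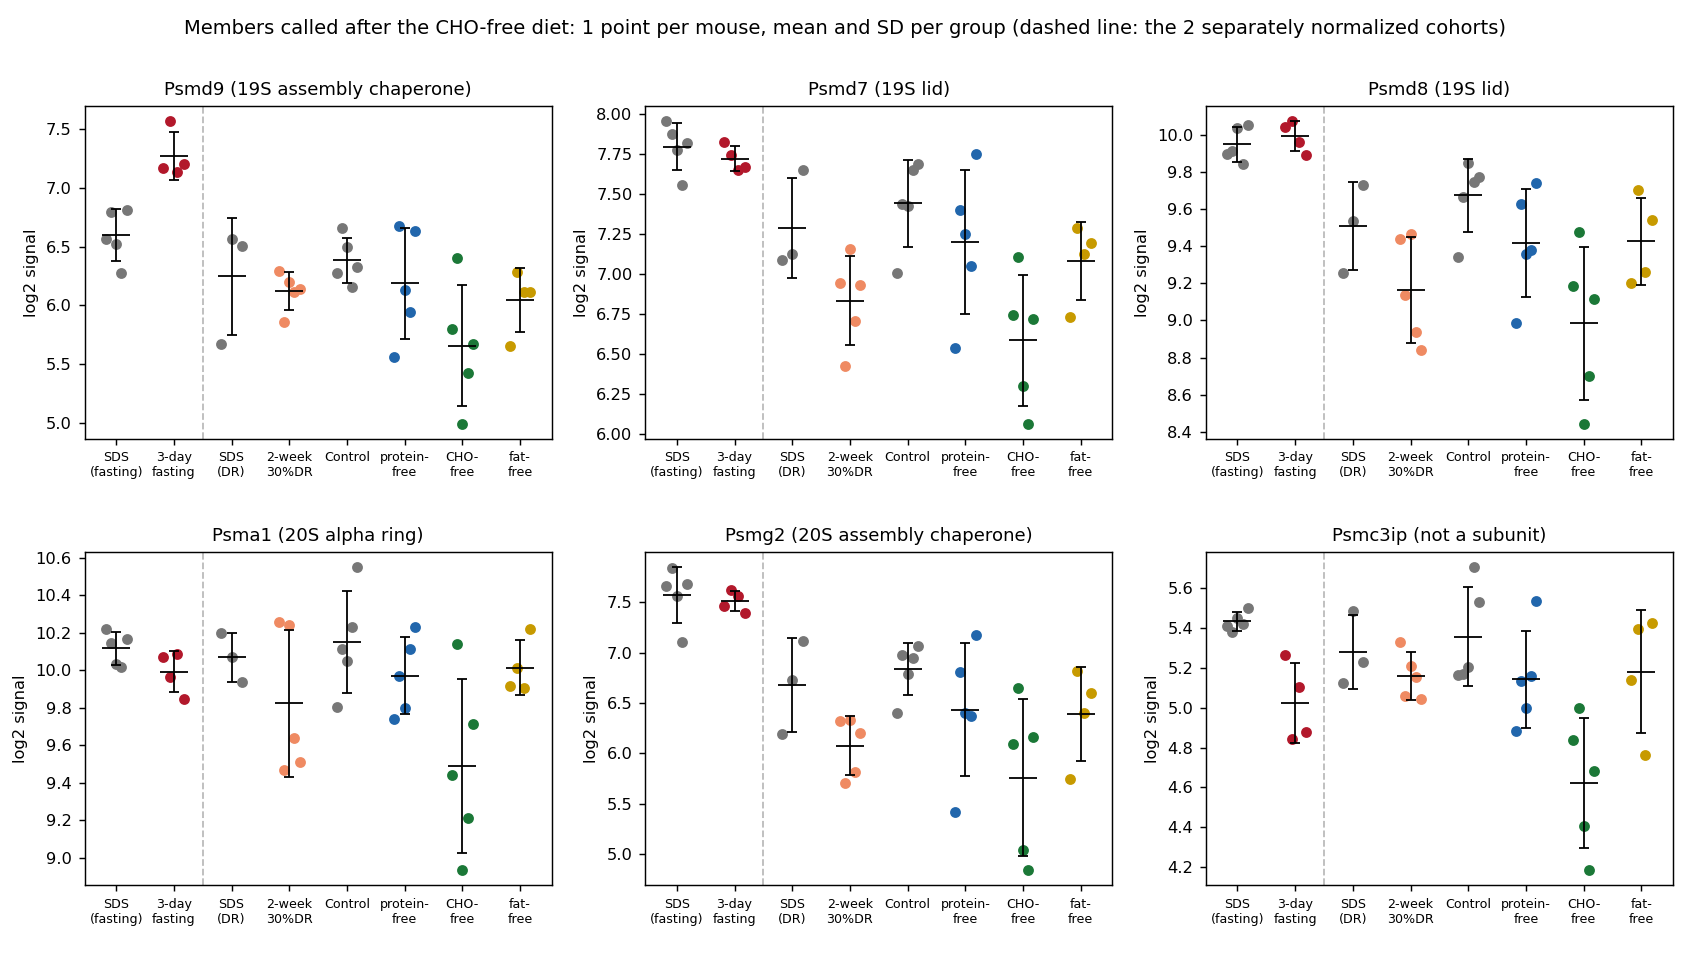
Log2 signal (vertical axis) of the 6 probe sets called after the CHO-free diet in the 8 groups (horizontal axis), 1 point per mouse with mean and SD. CHO-free mice are low and widely spread, for Psmg2 from 4.85 to 6.65, and Psmd9 lies above its SDS controls after fasting (7.13 to 7.57 against 6.28 to 6.81) and mostly below the Control mice after the CHO-free diet (5.00 to 6.40 against 6.16 to 6.65).

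The Gapdh 3′ to 5′ difference moved with these values. It was 1.63, 0.98, 2.45, 2.45 and 1.72 in the 5 CHO-free mice, in the order of their replicates. Replicate 2, the highest of the 5 for each of the 6 called probe sets, had the narrowest difference, and replicates 3 and 4, the lowest for each, had the widest. With this difference as a covariate the changes were -0.20 for Psmd7 (SE 0.13), -0.14 for Psmd8 (SE 0.12), -0.20 for Psma1 (SE 0.17), -0.03 for Psmg2 (SE 0.15), -0.01 for Psmd9 (SE 0.14) and -0.39 for Psmc3ip (SE 0.15), and none of the 6 was called. Because the Gapdh difference did not overlap between the CHO-free and the Control mice, diet and RNA completeness cannot be told apart in that fit. The median over the 74 probe sets went from -0.14 to -0.02. A single probe set of Psmf1 was called in that fit, at -0.60 (adjusted p = 0.0339, limma), and was at -0.33 without the covariate. The calls over the whole array went from 611 to 220 higher and from 1016 to 182 lower in the same fit.

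**Figure D4:**
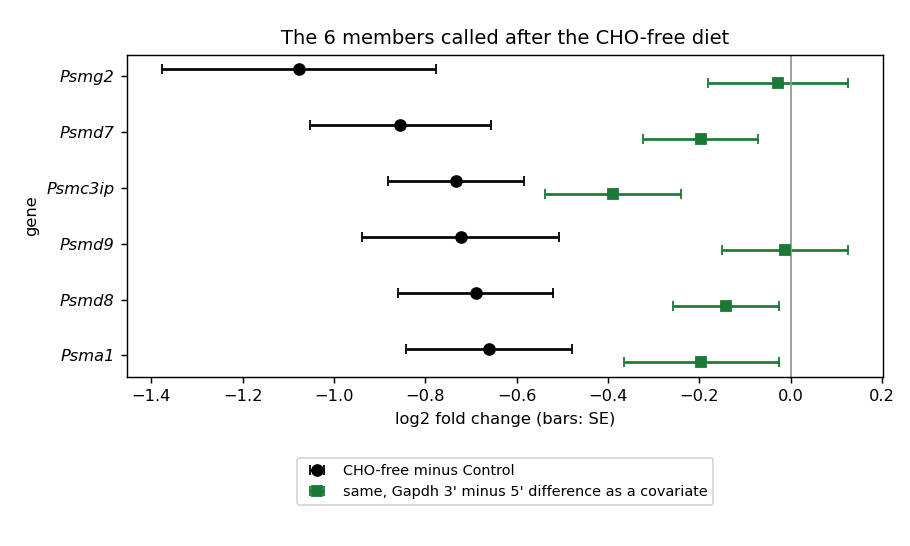
Log2 fold change with SE (horizontal axis) of the 6 probe sets called after the CHO-free diet (vertical axis), without (black) and with (green) the Gapdh 3′ to 5′ difference as a covariate. Psmg2 went from -1.08 to -0.03 and Psmd9 from -0.72 to -0.01, and Psmc3ip kept the widest distance from 0, at -0.39.

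Leaving out CHO-free replicates 3 and 4, a choice made after the data were seen, left no member called in limma, with 12 of 74 at an unadjusted p under 0.05 (16.2%, beside 14.5% of all probe sets). Over the whole array 301 probe sets were then called higher and 264 lower, against 611 and 1016 with all mice. The changes were -0.59 for Psmd7, -0.53 for Psmg2, -0.52 for Psmc3ip, -0.43 for Psmd9, -0.41 for Psmd8 and -0.38 for Psma1. The signs of all 6 stayed, and 50 of the 74 members were below 0 with a median of -0.07. Without replicate 3 alone, 2 members were called (Psmc3ip and Psmd7), without replicate 4 alone 3 (with Psmd8), and without replicate 2 alone 10. Shares over all probe sets were not computed for these fits, so the counts have no background to be read against. Leukocyte markers were also lower, at a mean of 5.96 to 6.08 against 6.19 to 6.76 on the Control diet. Of the 20 markers 5 were called lower (25%, beside 2.25% of all probe sets). With the marker mean as a covariate none of the 6 members was called. The marker means did not overlap between the groups, so diet and markers cannot be told apart in that fit.

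**Figure D5:**
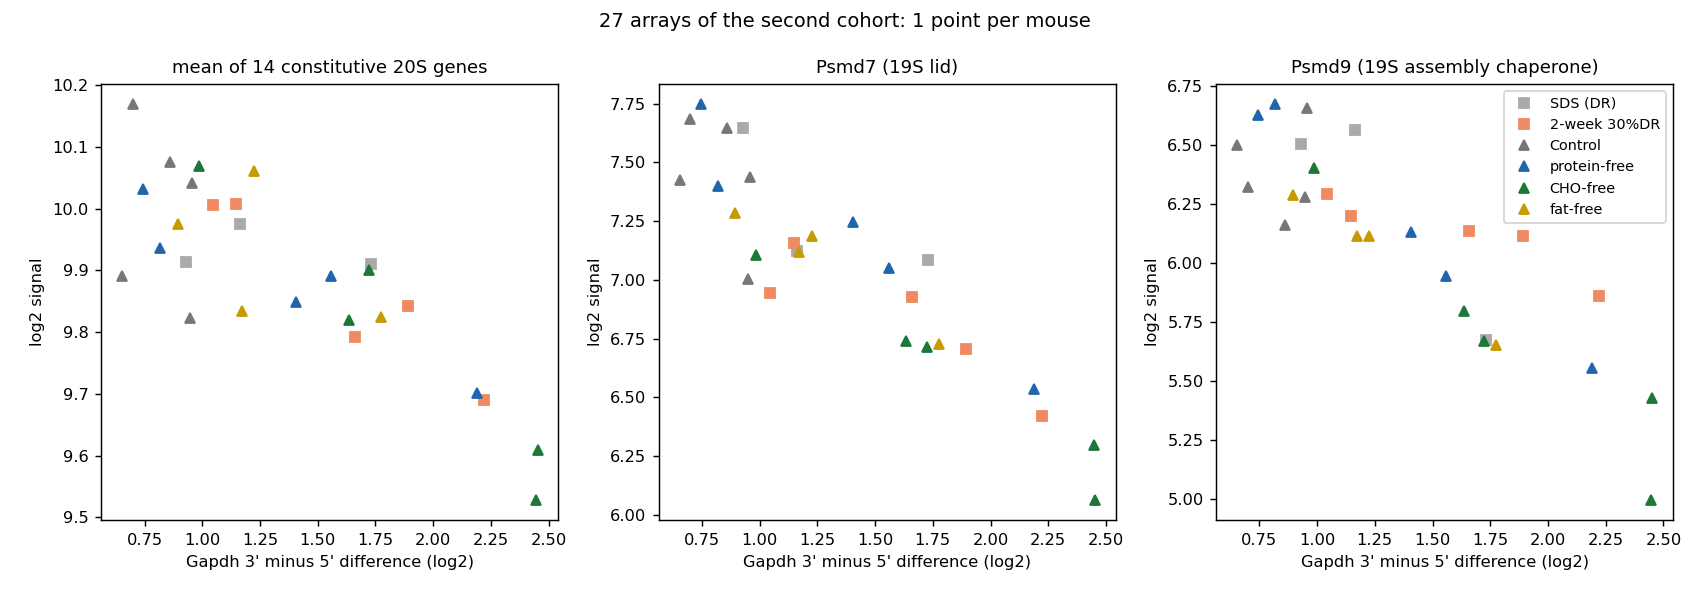
Log2 signal (vertical axis) of the 14 constitutive 20S genes as a mean, of Psmd7 and of Psmd9 against the Gapdh 3′ to 5′ difference in log2 (horizontal axis), 1 point per mouse for the 27 mice of the later experiment, by group. The 2 CHO-free mice with the widest difference, 2.45 each, have 20S means of 9.53 and 9.61, and the CHO-free mouse at 0.98 has 10.07.

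The CHO-free changes that met the FDR but not the fold minimum were the chaperones Psmd5 (-0.54) and Psmg1 (-0.39), Psmc2, an ATPase (-0.46), Psmb4 of the beta ring (-0.35), Psmf1 in 2 probe sets (-0.43 and -0.53) and 1 probe set of Psmd4, a ubiquitin receptor (-0.52, with 0.13 in its brightest). Psmb3 of the beta ring was the 1 higher member, at 0.54, and its other probe set was at -0.23. The catalytic subunits Psmb6, Psmb7 and Psmb5 were at -0.01, -0.58 and -0.13. Psmb8, Psmb9 and Psmb10 were at -0.42, -0.38 and -0.10 in the probe sets called after fasting, with 0.09 in the brightest of Psmb9, and Psme1, Psme2 and Psme3 at 0.00, -0.24 and 0.24, none of which was called. Among the partners Zfand2a (-0.74), a stress-induced cofactor, and Usp14 (-0.63), a deubiquitinase of the 19S particle, were called lower. They were 12.5% of the 16, beside 2.25% of all probe sets, and the median over the 16 was -0.19.

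The 30%DR, protein-free and fat-free diets called no member. With 30%DR the calls over the array were 0.47% higher and 0.45% lower (0.766% and 0.724% by the FDR alone), no member passed either in limma, and 5 of 74 members had an unadjusted p under 0.05, 6.76% beside 12.4% of all. On the protein-free diet they were 0.45% higher and 0.288% lower (1.01% and 0.682% by the FDR alone), no member passed in limma, and 7 of 74 had an unadjusted p under 0.05, 9.46% beside 12.9%. On the fat-free diet 0% of all probe sets was called in either direction, or passed by the FDR alone, and 2 of 74 members had an unadjusted p under 0.05, 2.7% beside 4.63%.

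In these 3 comparisons more members lay below their control than above it. The counts were 52 below and 22 above with 30%DR (median -0.08, all probe sets 0.00), 58 and 16 on the protein-free diet (median -0.09, all 0.01) and 58 and 16 on the fat-free diet (median -0.07, all 0.01). Once the Gapdh difference entered the fit the medians were -0.03, -0.01 and -0.01. That difference ran from 1.04 to 2.22 with 30%DR and from 0.93 to 1.73 in its SDS mice, from 0.74 to 2.19 on the protein-free and from 0.89 to 1.78 on the fat-free diet. With 30%DR the lowest and highest bounds of the 95% intervals over the 74 were -1.31 and 0.66, and the median standard error was 0.13. For some members a change beyond the fold minimum is therefore not excluded.

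The brightest gene of each role was read in the 3 comparisons. Psma3, the brightest gene of the alpha ring, was at 0.04 with 30%DR, -0.02 on the protein-free and -0.01 on the fat-free diet. Psmc3, the brightest ATPase, was at -0.04, -0.09 and -0.11, and Psmd6, the brightest lid gene, at -0.07, -0.03 and -0.15. Psmb4 of the beta ring was at -0.08, -0.16 and -0.15, Psmd4 of the base at -0.01, 0.08 and -0.07, and Psme2 of the PA28 cap at -0.04, -0.09 and -0.02. The chaperones were Psmd5, at -0.53, -0.15 and 0.06, and Psmg1, at -0.19, -0.23 and -0.17, none of them called. Psme3ip1, outside the particle, was at -0.09, -0.11 and -0.00. The lowest values with 30%DR were those of Psmg2 (-0.60 in the probe set called after the CHO-free diet), Psmd5 (-0.53) and Psmd7 (-0.45). On the protein-free diet the lowest among the brightest probe sets was Psmb7 at -0.40, with Psmb5 at -0.29 and Psme3 at -0.27. Over all 74 probe sets the lowest was also at -0.40, and none was called. None of the immunoproteasome genes was called. Psmb8 was at -0.19 with 30%DR, -0.16 on the protein-free and -0.31 on the fat-free diet, and Psmb10 at -0.18, -0.15 and -0.08. The probe sets of Psmb9 differed in sign, at -0.05, -0.03 and -0.26 for the one called after fasting and at 0.21, 0.15 and 0.02 for the brightest. Psmb8 varied widely among the Control mice themselves, which measured 5.46, 6.17, 5.98, 6.07 and 6.87, a range that held all mice of the protein-free (5.60 to 6.37) and CHO-free (5.51 to 5.85) groups. Only the lowest fat-free mouse, at 5.21, lay below it. The probe set of Psmb9 called after fasting ran likewise from 5.31 to 6.37 in the Control mice, and the leukocyte marker mean was highest in the same mouse, Control replicate 5, at 6.76.

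Whether the effects themselves differed between interventions was tested in limma over all 36 arrays. By the FDR alone Psmb10 changed more after fasting than in each other intervention, by -0.48 against 30%DR (adjusted p = 0.0411), -0.52 against the protein-free (adjusted p = 0.0121), -0.56 against the CHO-free (adjusted p = 0.00545) and -0.58 against the fat-free diet (adjusted p = 0.00404), all 4 under the fold minimum. Whether these differences held with 1 array left out or with the leukocyte covariate was not examined, and the control of 30%DR had only 3 mice. For Psmb8 the differences were -0.59, -0.62, -0.37 and -0.47 and none passed the FDR. For Psmb9 they were -0.62, -0.64, -0.29 and -0.41 in the probe set called after fasting and -0.36, -0.30, -0.24 and -0.17 in the brightest, and none passed. The brightest probe set of Psmd9 differed by 1.40 between fasting and the CHO-free diet (SE 0.29, adjusted p = 0.0034) and was called in all 19 fits with 1 array left out. With the Gapdh covariate that difference was 0.73 (adjusted p = 0.0241), and the other probe sets of Psmd9 were at -0.10 and 0.27. Between fasting and the fat-free diet it differed by 1.01 (SE 0.30, adjusted p = 0.046), but the call was lost in 14 of 18 fits with 1 array left out (0.88 to 1.09, adjusted p from 0.0421 to 0.132), after median subtraction (adjusted p = 0.0541) and with the adipocyte covariate (adjusted p = 0.0624). The differences from 30%DR and the protein-free diet, 0.80 and 0.87, did not pass.

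Few other members differed past both thresholds. Psmd7 was lower after the CHO-free than after the protein-free diet by 0.61 (-0.61, SE 0.18, adjusted p = 0.0242), 1 of 74 members when 2.7% of all probe sets differed, a call lost in 4 of 10 fits with 1 array left out and with the Gapdh covariate (-0.29, adjusted p = 0.0655). Between fasting and the CHO-free diet 2 members differed (2.7%, beside 2.84% of all), Psmd9 and a probe set of Psmf1 (0.59, SE 0.17, adjusted p = 0.0391). The Psmf1 call was lost in 11 of 19 fits with 1 array left out and with the Gapdh covariate (0.39, adjusted p = 0.341), where Psmb10 was called in its place (-0.62, adjusted p = 0.00893). Between fasting and 30%DR it was 1 member (1.35%, beside 2.24%), a probe set of Psmd11 at 0.64 (SE 0.18, adjusted p = 0.048) that was called in none of the 17 fits with 1 array left out. Between fasting and the fat-free diet it was Psmd9 alone (1.35%, beside 3.33%). Between fasting and the protein-free diet no member differed in limma (2.33% of all did), and 9 of 74 had an unadjusted p under 0.05 (12.2%, beside 12.8% of all). Psme3 met the FDR under the fold minimum, at -0.50 between fasting and the CHO-free diet (adjusted p = 0.0154) and at 0.51 between the CHO-free and the protein-free diet (adjusted p = 0.000121). The brighter probe set of Psme3 measured 7.12, 7.26, 7.16, 7.17 and 7.10 in the Control mice, 6.95, 6.82, 6.86, 6.93 and 6.92 on the protein-free and 7.51, 7.46, 7.22, 7.54 and 7.27 on the CHO-free diet. All protein-free mice were below and most CHO-free mice above the Control mice, though neither comparison with the Control passed (adjusted p = 0.125 and 0.0802, limma), and its other probe set was at -0.39 and -0.24. Psmd11 and Psmf1 were named after their values were seen. Without CHO-free replicates 3 and 4 Psmd9 still differed between fasting and the CHO-free diet, and Psmd7 no longer between the CHO-free and the protein-free diet.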

How the data were processed

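Kidney RNA of 36 mice was hybridized to Affymetrix HT MG-430 PM plates, each mouse to its own array. The authors deposited log2 signals summarised and normalized by RMA (version not given in the sources used here), and the fasting experiment (9 arrays) was normalized apart from the later one (27 arrays) because it was hybridized on other dates. The authors removed outlier arrays of the SDS control of 30%DR, the fasting and the fat-free group before analysis. The labels list 4 mice in that SDS group and 3 arrays were used here. The log2 values ran from 1.995 to 13.86 over 45141 probe sets, of which 28898 carry 1 symbol, 551 several and 15692 none in GEO's platform annotation, which can be old. The number of arrays limits the precision, and the median standard error of a member's change was 0.074 for fasting and 0.112 to 0.130 for the other interventions.

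Diet and control were compared in limma 3.58.1 (R 4.3.3), within each experiment and over all probe sets, with Benjamini-Hochberg adjustment. A call needed an FDR under 5% and at least 1.5-fold. Differences between effects were fitted over all 36 arrays. Where a gene is given 1 value, it is that of its brightest probe set over the 36 arrays. Genes named are those called, the catalytic, activator and inhibitor genes, and the brightest of each role. Further genes are named where a count was small. The members and all lists were chosen with earlier results of these data known. Alternatives were the variance prior, normalization, a filter on dim probe sets, no fold minimum, array weights, the compared groups alone, 1 probe set per gene, covariates for Gapdh, leukocyte and adipocyte markers, and leaving out each array. The pair of CHO-free arrays left out together was chosen after the data were seen. Scripts were tested on simulated data. Promoters are from RefSeq (GRCm38.p6). Tables and figures used Python 3.11.15, pandas 2.3.3 and matplotlib 3.10.9.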

Additional observations from a re-analysis of the deposited data

Results flagged for a closer look

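Single mice stood far from the rest of their group in 9 of 182 groups of 4 or 5 mice examined, and chance alone would do so in about 1 of 20. For Psmd9, fasting replicate 2 was at 7.57 with the next fasted mouse at 7.20. For Psmc3, an ATPase of the 19S base, fasting replicate 1 was at 9.73 (next 9.94) and fat-free replicate 1 at 9.46 (next 9.87). For Psmb10, Control replicate 5 was at 6.75 (next 6.48), and for Psme2 the same mouse was at 9.46 (next 9.20). Psme2 was also high in SDS replicate 5 of the fasting experiment, at 9.57 (next 9.28). Psmg1 was low in SDS replicate 4 of the fasting experiment, at 8.97 (next 9.17), Psmb6 was low in CHO-free replicate 4, at 9.83 (next 10.07), and Psmf1 was high in 30%DR replicate 5, at 6.53 (next 5.91).

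The effect of the intervention differed by the limma test of the difference itself in 5 cases. Per difference 0% to 2.7% of members were called, beside 2.24% to 3.33% of all probe sets. The brightest probe set of Psmd9 differed by 1.40 between fasting and the CHO-free diet (0.73 with the Gapdh covariate, still called). Its other probe sets were at -0.10 and 0.27. Between fasting and the fat-free diet the brightest differed by 1.01, a call lost in 14 of 18 fits with 1 array left out. Psmf1 differed by 0.59 between fasting and the CHO-free diet in 1 probe set, a call lost in 11 of 19 such fits. Psmd11 differed by 0.64 between fasting and 30%DR in 1 probe set, a call lost in all 17. Psmd7 differed by -0.61 between the CHO-free and the protein-free diet, a call lost in 4 of 10.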

How the results depend on the processing

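The counts of called members, 4 after fasting and 6 after the CHO-free diet, depended on several choices. For most settings below, among them all differences and all fits with 1 array left out, shares over all probe sets were not computed. Such counts have no background to be read against. Without a fold minimum the fasting and CHO-free counts were 15 and 14 (20.3% and 18.9%, beside 19.6% and 10.4% of all probe sets). The differences between effects then called 2 members for fasting against 30%DR, 1 against the protein-free, 5 against the CHO-free and 4 against the fat-free diet. For the CHO-free against the protein-free diet they called 7. With the leukocyte covariate the fasting and CHO-free counts were 0, and so was the CHO-free against protein-free difference. With the Gapdh covariate the CHO-free count was 1, fasting against 30%DR 0, fasting against fat-free 2 and CHO-free against protein-free 0. The 2 groups alone gave 3 for the CHO-free diet. Quantile normalization gave 2 for fasting against fat-free and 2 for CHO-free against protein-free. Median subtraction and the adipocyte covariate each gave 0 for fasting against 30%DR, and array weights gave 1 for fasting against protein-free and 2 for fasting against fat-free. Without CHO-free replicates 3 and 4, chosen after the data were seen, the counts were 0 for the CHO-free diet, 1 for fasting against CHO-free and 0 for CHO-free against protein-free. An equal count did not always mean an equal gene. For fasting against fat-free, median subtraction and the adipocyte covariate each lost Psmd9 and called 1 lower member instead, and for fasting against CHO-free the Gapdh covariate lost Psmf1 and called Psmb10. The cause was not tested. Leaving out 1 array in turn gave 3 to 5 members for fasting (3 without fasting replicate 2), 2 to 10 for the CHO-free diet (2 without CHO-free replicate 3, 10 without replicate 2), 0 to 0 for 30%DR, protein-free and fat-free, 0 to 0 for fasting against 30%DR, 0 to 1 against protein-free, 1 to 9 against CHO-free, 0 to 2 against fat-free and 0 to 6 for CHO-free against protein-free. Of the 10 named changes that were called, 0 reversed. Psmb8, Psmb10 and the probe set of Psmb9 called after fasting, not its brightest, were called in all 9 fits with 1 array left out. Each array came from a different mouse and the labels name no pairing between mice, so no paired analysis was made. The labels give no replicate numbers, and those used here follow the order of the samples.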

Other observations

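Beside the proteasome, 12 of 17 genes of the ubiquitin system itself were measured, and none was called in any intervention. By the FDR alone Ube2n, a conjugating enzyme for lysine-63 chains, was lower after fasting (-0.35) and with 30%DR (-0.33), Ube2g2 was lower with 30%DR (-0.46) and Ube2d1 after the CHO-free diet (-0.47).

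A further 2 probe sets were listed under both Sirt3 and Psmd13 and were therefore not members. The first was at -0.07 after fasting, -0.14 with 30%DR, and -0.13, -0.13 and -0.02 on the protein-free, CHO-free and fat-free diets. The second was at 0.09, 0.02, 0.12, 0.07 and 0.06 in the same order, and neither was called in limma.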
